A study of Mus musculus with 10 samples.

Results

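H2AK119ub, histone H2A carrying ubiquitin on a lysine near its end, was mapped in blood-fated cells with and without functional SCL, and the peaks of its 2 libraries are described here. The members are all peaks listed for H2AK119ub, 4922 in the library labelled WT and 2388 in the library labelled Delta, which together make 7310 of the 70826 peaks listed for the 4 marks of the experiment. They were taken by mark alone, with no threshold on a measured value beyond that of the lists. Both libraries came from mCherry-positive cells sorted from embryoid bodies (EBs, aggregates of differentiating mouse embryonic stem cells) at day 4. WT stands for Scl:mCherry, in which an mCherry cassette was placed on 1 allele of Scl in J1 embryonic stem cells and SCL stays functional. Delta stands for Scl Δ/Δ:mCherry, made from that same line by CRISPR so that both alleles lack the basic helix-loop-helix (bHLH) domain of SCL. Each genotype was thus a line grown from single cells, and both carried the reporter. Drosophila S2 cells were added to the sorted cells before ChIP as a spike-in. H3K27me3, H3K27ac and H3K4me3 were mapped in the same cells, and 2 input libraries were left aside. Since each genotype had a single library for each mark, every difference below is one between libraries, without a replicate check or a p-value.

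SCL, also called TAL1, is a bHLH transcription factor needed for blood formation. H2AK119ub is placed by Polycomb repressive complex 1 (PRC1), whose catalytic subunits are RING1 and RNF2, and whose variant forms hold RYBP or its relative YAF2. Polycomb complexes gather at CpG islands of silenced developmental genes, where the complex PRC2 also places H3K27me3, while H3K4me3 and H3K27ac mark active or poised promoters. Differences in a list of peaks cannot separate more cells carrying the mark from more of the mark in each cell.

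Sequences at and away from the peaks are shown first, from the mm9 reference (build NCBIM37), 5′ to 3′, in lower case with each CG dinucleotide in capitals. CG reads the same on both strands. For genes, the 200 bases directly before the annotated transcription start site (TSS) are given on the strand of the gene. Gpr153, an orphan receptor gene, stands for genes with a peak in WT alone (chr4:151648141-151648340, plus strand, 29 CG). BC068157 stands for genes with a peak in Delta alone (chr8:4217313-4217512, minus strand, 10 CG). Each of these windows lies wholly under a peak of the genotype named. Rpl15, a ribosomal protein gene with no peak in either list, stands for active CpG-rich promoters (chr14:19103906-19104105, minus strand, 13 CG, the median of the 79 ribosomal protein genes). The last pair is the middle 200 bases of the longest intergenic peak of each list, in WT on chr11:118911150-118911349 near Cbx8 (1 CG) and in Delta on chr1:78212736-78212935 near Pax3 (11 CG), both on the plus strand.
Gpr153, WT alone: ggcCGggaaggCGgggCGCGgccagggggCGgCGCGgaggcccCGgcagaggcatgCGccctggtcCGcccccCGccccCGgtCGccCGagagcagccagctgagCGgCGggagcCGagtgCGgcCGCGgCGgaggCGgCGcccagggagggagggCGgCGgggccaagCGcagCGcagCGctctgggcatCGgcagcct
BC068157, Delta alone: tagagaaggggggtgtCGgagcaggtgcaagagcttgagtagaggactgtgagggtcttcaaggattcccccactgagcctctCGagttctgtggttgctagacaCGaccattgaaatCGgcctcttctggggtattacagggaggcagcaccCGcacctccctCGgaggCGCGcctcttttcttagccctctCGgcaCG
Rpl15, neither: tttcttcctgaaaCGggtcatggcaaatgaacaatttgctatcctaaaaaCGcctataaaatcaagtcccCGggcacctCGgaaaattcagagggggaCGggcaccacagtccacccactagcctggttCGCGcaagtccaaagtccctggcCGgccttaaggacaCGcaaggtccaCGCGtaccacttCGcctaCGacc
Longest intergenic WT peak: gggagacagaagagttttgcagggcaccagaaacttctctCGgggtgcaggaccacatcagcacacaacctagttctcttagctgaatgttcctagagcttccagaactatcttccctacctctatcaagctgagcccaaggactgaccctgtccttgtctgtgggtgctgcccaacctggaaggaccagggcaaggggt
Longest intergenic Delta peak: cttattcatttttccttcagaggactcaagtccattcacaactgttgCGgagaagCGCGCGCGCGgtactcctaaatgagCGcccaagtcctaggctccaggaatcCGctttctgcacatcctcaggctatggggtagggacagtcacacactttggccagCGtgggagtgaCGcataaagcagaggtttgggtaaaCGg

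These windows differ widely in CG content, and the genome-wide values place them. The median protein-coding gene had 7 CG in the same 200 bases (25th to 75th percentile 2 to 15, 22359 genes). Genes with a peak in both genotypes had a median of 13, those in WT alone 12, those in Delta alone 13 and those in neither 7. In the 1000 bp around the TSS the medians were 6.60 CG per 100 bp for genes in both lists (95% interval of the median 6.30 to 6.80), 5.90 in WT alone (5.70 to 6.10) and 6.10 in Delta alone (5.70 to 6.50), against 4.10 for all genes. CpG-rich starts were therefore common to all 3 classes. They did not mark out H2AK119ub, since 4234 genes with H3K27me3 in both genotypes and no H2AK119ub peak had a median of 6.70.

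The peaks themselves were less CpG-rich than these starts. The median was 2.25 CG per 100 bp of peak in WT (2.18 to 2.31) and 2.47 in Delta (2.37 to 2.58), against 0.851 over the autosomes, 8.61 in WT H3K27ac peaks and 3.01 in WT H3K27me3 peaks. A peak overlapped by a peak of the other genotype over 1 bp or more was said to have a counterpart. WT peaks with a counterpart had a median of 3.14 (3.03 to 3.25) and those without one 1.90 (1.84 to 1.95), and in Delta the medians were 2.90 and 1.91. The gap held for WT peaks at a TSS (3.52 against 2.25) and away from one (2.51 against 1.65). Median GC content was 55.1% and 55.0% in the same pair of WT classes, so the classes differed in CG dinucleotides and hardly in base composition.

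To ask how the 2 lists differ in extent, peaks were compared by length. The WT list covered 5.26 Mb and the Delta list 2.84 Mb, a ratio of 0.540, and the ratio of peak numbers was 0.485 (95% Wilson interval 0.462 to 0.509, counting error only). Median peak length was 717 bp in WT (25th to 75th percentile 414 to 1247) and 771 bp in Delta (434 to 1402). The longest 10% of peaks held 35.4% of the covered bases in WT and 35.9% in Delta, so the shape of the distribution was alike while the number was not. The strongest of these peaks stood far below the strongest H3K27me3 peaks, with a highest −log10 q of 4.84 in WT and 4.36 in Delta against 44.8 and 50.1. Typical peaks were closer, with a median fold enrichment of 3.62 in WT against 3.71 for H3K27me3, and of 4.00 against 3.88 in Delta. The lowest fold enrichment listed was 2.73 in WT and 3.13 in Delta, and the lowest −log10 p 4.41 and 4.75, so listing began at a higher fold and a lower p in Delta. Keeping only peaks with a fold enrichment of 4 or more turned the order round, with 510 WT and 1189 Delta peaks. The lists do not give read depth. The read totals in the study's supplement are lower for the Delta H2AK119ub library and the Delta input than for WT, and their part in the peak numbers was not tested.

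Whether a WT peak was also found in Delta went with its length. Of 1613 WT peaks under 500 bp, 14.4% had a Delta counterpart (95% Wilson interval 12.8 to 16.2). The share was 21.3% between 500 bp and 1 kb, 46.7% between 1 and 2 kb, 76.6% between 2 and 4 kb, and 95% (133 of 140, 90.0 to 97.6) from 4 kb. Delta peaks followed the same order from a higher start, from 49.2% under 500 bp to 99.1% (107 of 108) from 4 kb. In both lists the longest peaks were nearly always shared. Peaks under 500 bp were seldom shared in WT and about evenly split in Delta, as the plot of overlap by length shows.

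**Figure D1:**
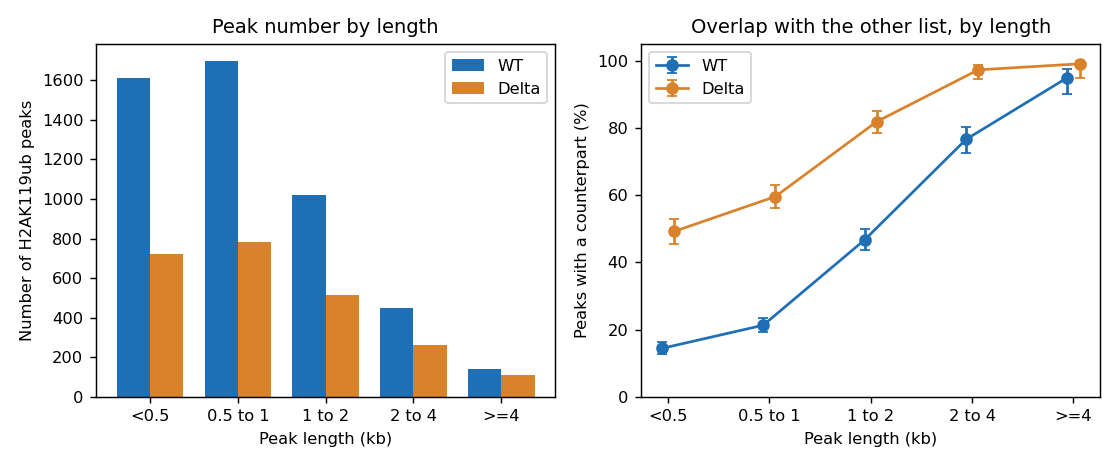
Left, number of H2AK119ub peaks in WT (blue) and Delta (orange) by peak length in kb; right, percent of those peaks overlapped by at least 1 bp of a peak in the other list, with 95% Wilson intervals. WT peaks rise from 14.4% under 0.5 kb to 95% from 4 kb, and Delta peaks lie above WT in each class.

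The peaks without a counterpart differed between the lists in how far they lay from the other list. The 784 unmatched Delta peaks were a median of 1.84 kb from the nearest WT peak, and 61.4% of them lay within 3 kb of one (57.9 to 64.7). The 3374 unmatched WT peaks were a median of 35.2 kb from the nearest Delta peak, and 23.7% lay within 3 kb (22.3 to 25.2). Most unmatched Delta peaks thus lay close to a WT peak, while most unmatched WT peaks lay further from a Delta peak, though 63.7% were within 100 kb of one (62.0 to 65.3). The WT list is the longer one, which by itself shortens distances to it. The bases listed in both genotypes came to 1.61 Mb, which is 30.7% of the WT bases and 56.7% of the Delta bases.

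Peaks that met in pairs were also compared. Of 1142 pairs in which 1 WT peak met 1 Delta peak and no other, the Delta peak was shorter in 680 (59.5%) and longer in 462. The median Delta length was 0.821 times the WT length, with a 25th to 75th percentile of 0.448 to 1.41. Another 174 WT peaks were met by 2 or more Delta peaks. Lengths of paired peaks were only loosely related, with a Pearson r of 0.311 on the log2 scale over these 1142 pairs, which lie in the same 2 libraries. Listed lengths thus differed in both directions between the lists, and without a replicate the scatter of such lengths between libraries is not known.

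Next, the position of the peaks relative to genes was examined. A peak was placed at a TSS when it came within 2500 bp of the start of any protein-coding transcript, and 53.4% of WT peaks (52.0 to 54.7) and 59.5% of Delta peaks (57.5 to 61.5) did so. Introns held 19.3% and 15.4%, intergenic sequence 19.2% and 18.8%, and exons away from a start 8.11% and 6.28%. WT peaks at a TSS had a Delta counterpart in 36.4% of cases (34.5 to 38.2), against 24.1% in introns (21.5 to 26.9) and 256 of 947 (24.3% to 29.9%) in intergenic sequence. Most of the remaining peaks were still close to genes, since 77.9% of WT peaks and 84.1% of Delta peaks lay within 10 kb of a start.

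Around the 22359 starts, counting the most upstream start of each gene, H2AK119ub was not centred on the TSS. In WT the share of starts under a peak was 1.60% at the TSS itself and reached its maximum of 3.37% at 1000 bp downstream. In Delta it was 0.702% at the TSS and 1.92% at 1100 bp downstream. Both genotypes showed a dip at the start between a low upstream shoulder and a high downstream one. Over 5 kb the upstream level was 0.594 times the downstream level in WT and 0.608 times in Delta. From 50 to 100 kb away the level was flat, at 0.550% in WT and 0.268% in Delta.

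**Figure D2:**
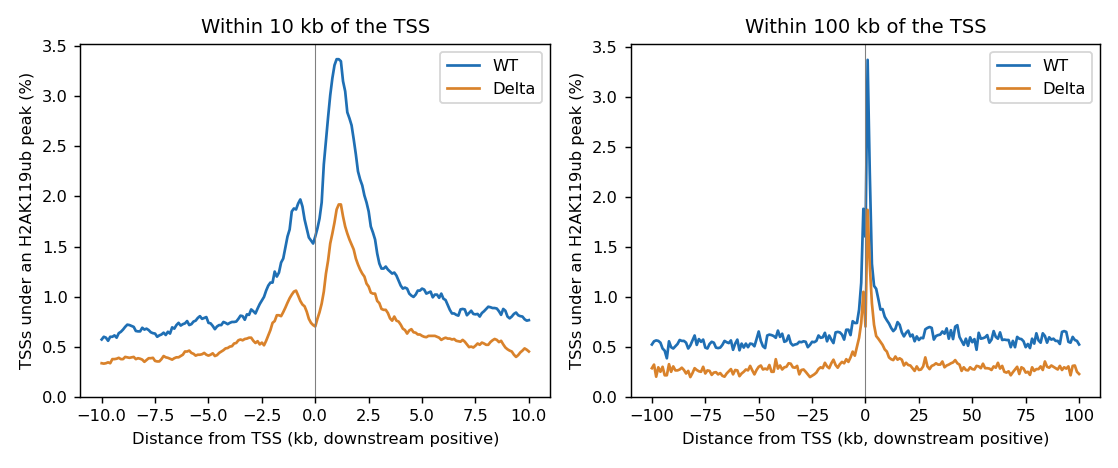
Percent of 22359 protein-coding starts under an H2AK119ub peak against distance from the start in kb (downstream positive), within 10 kb (left) and 100 kb (right), WT in blue and Delta in orange. Both curves dip at the start, with the WT maximum of 3.37% at 1000 bp and the Delta maximum of 1.92% at 1100 bp, and fall to 0.550% and 0.268% beyond 50 kb.

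Peaks were then assigned to genes. A peak lay at the TSS of 2060 genes in WT, which is 9.21% of 22359, and of 1118 genes in Delta, which is 5.0%. Both lists held 925 genes (4.14%), WT alone 1135 (5.08%) and Delta alone 193 (0.863%). Of the WT genes, 44.9% were thus also listed in Delta. In the sentences below the value of a gene is the summed length of all peaks reaching its TSS window, counted whole, so neighbours that share a peak share its length. With the 2388 peaks of lowest p taken from each list the counts were 1217 genes in WT, 1118 in Delta and 683 in both.

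WT-alone genes had short summed peaks, with a median of 686 bp, and Delta-alone genes a median of 605 bp. Genes found in both genotypes had longer ones and mostly had less sequence under peaks in Delta. Of these 925, 605 were shorter in Delta and 320 longer, with a median of 1773 bp in WT against 1115 bp in Delta. The longest summed WT extent among them was at Nfix, a nuclear factor I transcription factor gene (ENSMUSG00000001911.9, chromosome 8, 87223775 to 87324243, minus strand). It came to 23752 bp over 2 peaks in WT against 12334 bp over 5 peaks in Delta. Foxf1a, a forkhead gene of lateral plate mesoderm (chromosome 8, 123608286 to 123610851), had 23545 bp in WT against 5216 bp in Delta. Both had a part of their WT extent in Delta while H3K27me3 there stayed long, at 52138 bp and 54294 bp for Nfix and 25434 bp and 20840 bp for Foxf1a. Hoxa9 had 22101 bp and 15320 bp, whereas Hoxd3 (20204 bp and 21489 bp) and the Hoxa3 gene with identifier ENSMUSG00000079560.5 (21186 bp and 21201 bp) kept their extent.

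Among genes with a peak in WT alone, Chpf, which encodes a chondroitin polymerising factor (chromosome 1, 75471144 to 75476046, minus strand), had the longest extent, 11470 bp in WT. Gpr153, whose upstream sequence is printed above, had 9493 bp. Slc4a3, an anion exchanger gene, had 5431 bp, Dlx3, a distal-less homeobox gene, 4818 bp and Des, the gene of the muscle filament protein desmin, 4450 bp. Chpf, Slc4a3 and Des lie within 202 kb of each other, and Chpf and Des belong to the same run of WT peaks, described below. H3K27me3 was listed at all 5 in both genotypes, from 898 bp at Slc4a3 to 16666 bp at Gpr153 in WT, and from 590 bp to 18051 bp in Delta.

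In Delta alone the longest were shorter. BC068157 had 2853 bp on chromosome 8, Wnk4, a kinase of ion transport, 2458 bp, and Cebpa, a transcription factor gene of myeloid cells, 1986 bp. Hspa1a, a heat shock protein gene, had 1980 bp and Bhlha9, a bHLH gene, 1859 bp. H3K27me3 lay at the starts of these 5 genes in WT too, from 5474 bp at Wnk4 to 14002 bp at BC068157, so it was present there in the genotype without an H2AK119ub peak.

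Developmental regulators were described by lists. Each list count below is to be read beside the overall shares, 9.21% of genes in WT and 5.0% in Delta. Hox genes, which set position along the body axis, were nearly all listed in both genotypes: 38 of 39 in WT (97.4%) and 36 in Delta (92.3%), beside 9.21% and 5.0% of all genes. Of the 38, 35 were also listed in Delta (92.1%, beside 44.9% of all WT genes), and their median extent was 6148 bp in WT against 6247 bp in Delta. Among all WT genes with a summed length of 4 kb or more, 96.5% were also listed in Delta, so the Hox share was not above that of long genes. Hoxb2 (891 bp), Hoxd1 (444 bp) and Hoxd8 (1198 bp) had a peak in WT alone, each with a short summed length. The 8 Lhx genes, LIM homeobox regulators, were all listed in both. Lhx9 kept its extent (10259 bp and 9952 bp), Lhx5 had less in Delta (9722 bp and 5580 bp) and Lhx2 more (5493 bp and 14811 bp). The 6 Irx genes, which pattern neural and mesodermal tissue, were also all in both lists, among them Irx3 (7523 bp and 4269 bp) and Irx5 (1709 bp and 6169 bp).

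Of 24 neural regulators, 20 were listed in WT and 21 in Delta, and 18 of the 20 were in both (90.0%). With a TSS distance of 1000 bp this share fell to 68.8% (11 of 16), while that of the Hox genes was 89.5%. Pax6, a regulator of eye and brain, had 11861 bp in WT against 14677 bp in Delta, Lhx5 had the values above, and Nkx2-2 and Olig2, which pattern the ventral spinal cord, had 6700 bp and 3380 bp and 6369 bp and 1563 bp. Dbx1 and Neurod1 had a peak in WT alone, and Olig1 and Olig3 were among those in Delta alone. In the Pax family 8 of 9 had a peak in WT and 7 in both, with Pax7 at 18109 bp and 7220 bp and Pax3 at 13765 bp and 3504 bp. Among genes in both lists the Delta extent was the shorter for 10 of 18 neural and 4 of 7 Pax genes, which is no larger a share than the 605 of 925 overall.

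Cardiac regulators were listed less often in Delta. In WT 18 of 20 had a peak (90.0%) and in Delta 11 (55.0%), beside 9.21% and 5.0% of all genes. Those in both included Tbx2 (12002 bp and 2927 bp), Tbx1 (10288 bp and 7734 bp) and Tbx5 (6462 bp and 10676 bp), T-box genes of heart development, and Nkx2-5 (5662 bp and 3451 bp), a heart homeobox gene. The 7 in WT alone were Tbx3 (3468 bp), Tbx20 (1706 bp), Isl1 (1470 bp), Hand1 (1048 bp), Wnt5a (585 bp), Bmp4 (583 bp) and Gata5 (203 bp), named after their values were seen. The share of WT genes also listed in Delta, 61.1%, stood above the 44.9% of all genes. With equal numbers of peaks the counts were 12 in WT and 11 in Delta, so most of the gap between the genotypes closed. H3K27ac, a mark of active starts, was listed at 2 of the 20 in WT, Bmp2 (210 bp) and Tbx3 (321 bp). In Delta it was listed at 4, Tbx3 (2103 bp), Hand1 (1291 bp), Gata6 (599 bp) and Tbx20 (164 bp). Over all 22359 genes it was listed at 4440 in WT and 5096 in Delta, so neither cardiac count stood above the overall share. H2AK119ub at Gata6, a regulator of heart and endoderm, was short in both, at 967 bp in WT against 213 bp in Delta, and at Gata4 it was 3519 bp and 1714 bp. At Mesp1, which marks early cardiac mesoderm, it was 224 bp and 567 bp, and at Tbx6, a paraxial mesoderm gene, there was no peak in either list.

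Paraxial and early mesoderm genes were listed in 14 of 22 cases in WT and 13 in Delta, 11 of them shared. Uncx, a somite gene, had 7398 bp and 4981 bp and Foxc2, a forkhead gene of paraxial mesoderm, 5500 bp and 10633 bp. Evx1, Lfng and T were in WT alone, with 2797 bp, 3410 bp and 250 bp, and Hes7 and Mixl1 in Delta alone, with 1044 bp and 519 bp. At Evx1 H3K27me3 was likewise listed in WT alone. It covered 5133 bp in WT and was not listed in Delta. With equal numbers of peaks the counts were 8 and 13, so the order of the genotypes was not stable for this list.

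Of 19 blood regulators, 6 had a peak in WT (31.6%) and 8 in Delta (42.1%), beside 9.21% and 5.0% of all genes. All 6 of the WT genes were among the 8. Of these 6, 5 had a shorter extent in Delta, as did 9 of the 11 shared cardiac genes, beside 605 of all 925 shared genes (65.4%). Gata2, a factor of blood stem cells, had 5687 bp and 4805 bp, and Cbfa2t3, which encodes the repressor ETO2, 3926 bp and 1646 bp. Lyl1, the closest relative of Scl, had 2669 bp in WT against 7425 bp in Delta, and Klf1, an erythroid factor, 1099 bp and 673 bp. Runx1, needed for definitive blood, and Myb, a progenitor factor, had a peak in Delta alone, of 303 bp and 808 bp. Taking only starts within 1000 bp left 6 genes in each genotype, so the peaks at Runx1 and Myb lay more than 1000 bp from any start. Fli1, another blood factor, had no H2AK119ub peak in either list although its H3K27me3 extent was 6349 bp in WT against 11206 bp in Delta. Endothelial genes numbered 5 of 16 in each genotype, with Dll4 (2761 bp and 4476 bp), Sox17 (1483 bp and 2104 bp) and Sox18 (1306 bp and 1026 bp) in both, Efnb2 and Notch1 in WT alone, and Flt1 and Sox7 in Delta alone.

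Active marks at cell type markers differed between the libraries beside these lists. H3K27ac was listed at 5 of 10 markers of blood-fated mesoderm in WT (Tal1, Lmo2, Fli1, Gata2 and Erg) and at 1 in Delta (Runx1). Among all 22359 genes H3K27ac was listed at 4440 in WT and 5096 in Delta. Over 6 cardiac or paraxial markers it was listed at 0 in WT and 2 in Delta, and over 5 pluripotency, 3 neural and 4 endoderm markers at 0 in both. Of the blood-fated markers, Kdr, Etv2, Cdh5 and Tek had no H3K27ac peak in either genotype. H3K4me3 was listed at all 10 in WT and at 8 in Delta, with Cdh5 and Tek missing, and at all 6 cardiac or paraxial markers in both. Among all genes H3K4me3 was listed at 13561 in WT and 13477 in Delta. The part of these differences in the H2AK119ub lists was not tested.

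Genes of the Wnt, Bmp and Fgf families were counted by gene symbol, which can take in members that are not ligands. Wnt ligands were listed in 13 of 19 cases in WT and 8 in Delta. Wnt10a (9092 bp and 5301 bp), Wnt10b (5456 bp and 4349 bp), Wnt1 (5257 bp and 2360 bp) and Wnt7b (3834 bp and 1912 bp) were in both, 6 others in WT alone, and Wnt11 in Delta alone (538 bp). With equal numbers of peaks the Wnt counts were 11 and 8. Bmp genes went from 6 of 11 to 2. Bmp7 (1462 bp), Bmp8b (1204 bp), Bmp4 (583 bp) and Bmp8a (550 bp) were in WT alone. Bmp6 (1213 bp and 1045 bp) and Bmp1 (325 bp and 437 bp) were in both. With equal numbers the Bmp counts were 1 and 2, so the order turned round. Fgf genes were listed in 8 of 22 cases in WT and 6 in Delta, with Fgf8 the longest (6516 bp and 3701 bp).

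Tbx genes were listed in 10 of 15 cases and 7, Sox genes in 10 of 18 and 8, Fox genes in 22 of 43 and 20, Nkx genes in 11 of 14 in each genotype, Gata genes in 4 of 6 in each and the sine oculis homeobox genes in 5 of 6 and 4. Of the latter, Six3, a forebrain gene, was the longest in both lists, with 11646 bp and 12139 bp. Endoderm genes were listed in 8 of 11 cases and 7, with Cdx2 (4208 bp and 1866 bp) and Pdx1 (2824 bp and 6168 bp) among those in both, and with equal numbers of peaks in 2 and 7. Pluripotency genes were listed in 4 of 12 and 3, with Sox2 at 1877 bp and 252 bp and Pou5f1 at 1800 bp in WT alone. Of 24 clustered protocadherin genes, 2 and 1 were listed (8.33% and 4.17%), near the 9.21% and 5.0% of all genes. Ribosomal protein genes (79) and clustered Hist1h histone genes (55) had no peak in either genotype, as the plot of gene lists shows.

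**Figure D3:**
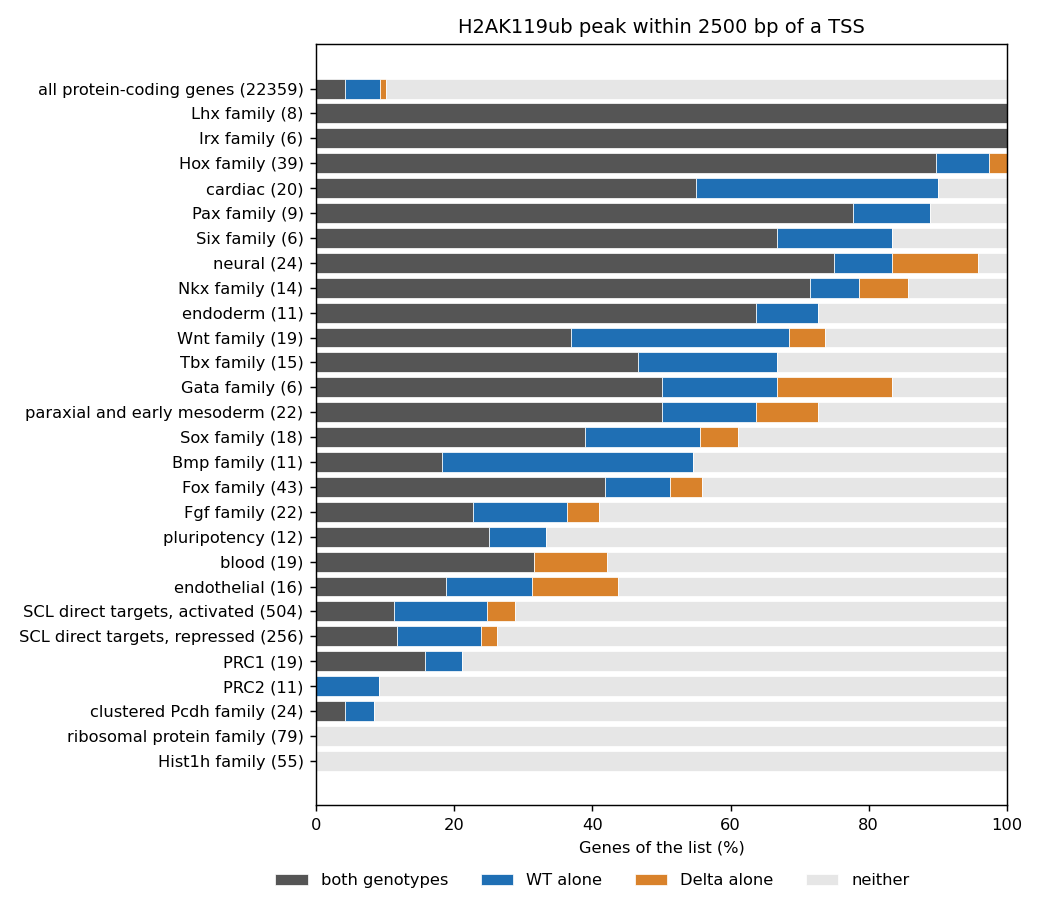
Percent of genes in each list with an H2AK119ub peak within 2500 bp of a TSS in both genotypes (grey), WT alone (blue), Delta alone (orange) or neither (pale), with the number of genes in brackets. The Lhx and Irx bars are grey throughout, the cardiac, Wnt and Bmp bars have the widest blue parts beside the 5.08% of all genes, and the ribosomal and Hist1h bars are empty.

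Genes of the Polycomb complexes themselves were counted as well. Among 19 PRC1 genes 4 had a peak in WT (21.1%) and 3 in Delta (15.8%), above the 9.21% and 5.0% of all genes. Those in both included Cbx8 (2933 bp and 7602 bp), which encodes a chromobox subunit of canonical PRC1, and Bmi1 (764 bp and 2182 bp), which encodes a RING-finger partner of the catalytic subunits, and each of this pair was longer in Delta. Kdm2b, which encodes the CpG-binding subunit of a variant PRC1, had 551 bp in WT alone. Rybp and Pcgf5, subunit genes of variant PRC1, had no peak in either list, and among 11 PRC2 genes Phf19 alone had one, of 333 bp in WT, so that the PRC2 share in WT was 9.09%. The longest intergenic WT peak, whose middle is printed above, was 12310 bp long and 2.81 kb from the Cbx8 start, and Delta peaks covered 8559 bp of it.

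Genes that the study gives as direct targets of SCL, bound by it and changed in its absence, were compared as lists of gene names. The study chose these lists from SCL binding in WT cells and from expression in WT and Scl-null cells. Those were EB cells positive for the receptor FLK1, taken at an earlier day and from lines other than the reporter lines. The lists did not come from the libraries used here. The study set the histone marks beside them itself, so a direction at them is not independent evidence. Of 504 activated targets, 125 had a peak in WT (24.8%) and 77 in Delta (15.3%). Of 256 repressed targets, 61 had one in WT (23.8%) and 36 in Delta (14.1%). Both lists stood above the shares of all genes, 9.21% in WT and 5.0% in Delta. The share of WT genes also listed in Delta was 45.6% for activated and 49.2% for repressed targets, near the 44.9% of all genes. Activated and repressed targets were thus nearly alike in H2AK119ub. Delta-alone peaks were at 20 of 504 activated and 6 of 256 repressed targets, beside 0.863% of all genes. With equal numbers of peaks the counts were 67 and 77 for activated and 38 and 36 for repressed targets.

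The other marks at the same genes were described next, since they took no part in choosing the peaks. H3K27me3 was listed at 97.8% of genes with H2AK119ub in both genotypes (905 of 925, 96.7 to 98.6), at 83.6% of WT-alone genes (949 of 1135, 81.3 to 85.7) and at 28.6% of genes with no H2AK119ub peak, all taken in WT. In Delta the shares were 97.9%, 82.7% and 26.3%. Of the 1135 WT-alone genes, 908 had H3K27me3 in both genotypes and 41 in WT alone, so H3K27me3 was listed at most genes whose H2AK119ub peak was not listed in Delta. The extent of H3K27me3 in WT had a median of 8339 bp at genes with H2AK119ub in both, 3960 bp at WT-alone genes and 1044 bp at those with H3K27me3 and no H2AK119ub peak. A listed H3K27me3 peak was also common at ribosomal protein genes, at 68 of 79 in WT and 56 in Delta, beside 7791 and 7313 of all 22359 genes. H3K27ac was listed at 68 and 71 of the ribosomal protein genes, and H2AK119ub at none. An H3K27me3 peak in the list thus did not by itself set a gene apart from active starts.

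H3K4me3 and H3K27ac separated the classes less or in the other direction. H3K4me3 was listed in WT at 93.5% of genes in both, 88.7% of WT-alone and 95.3% of Delta-alone genes, against 57.2% of genes in neither. H3K27ac was listed in WT at 3.03% of genes in both (2.10 to 4.34), 8.19% of WT-alone genes (6.74 to 9.93) and 21.4% of genes in neither. In Delta these were 4.54%, 12.1% and 24.3%. Most genes with H2AK119ub thus had H3K27me3 and H3K4me3 peaks together and few had H3K27ac. Among the WT-alone genes 69 had H3K27ac in Delta alone and 25 in WT alone, and among genes in neither class 1322 and 732, so the excess of Delta was shared with genes that had no H2AK119ub peak.

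Length and H3K27me3 each went with the share of WT genes also listed in Delta. Among WT genes with H3K27me3 this share was 48.8% (905 of 1854, 46.5 to 51.1), and among those without it 9.71% (20 of 206, 6.37 to 14.5). At a summed WT length under 500 bp the shares were 23.6% and 2.99%, between 500 bp and 1 kb 33.4% and 7.69%, and between 1 and 2 kb 52.6% and 25.8%. From 4 kb all 173 WT genes had H3K27me3, and 96.5% of them were also listed in Delta (92.6 to 98.4). The difference between genes with and without H3K27me3 was thus present within each of the 3 shorter classes, in which the intervals did not overlap.

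**Figure D4:**
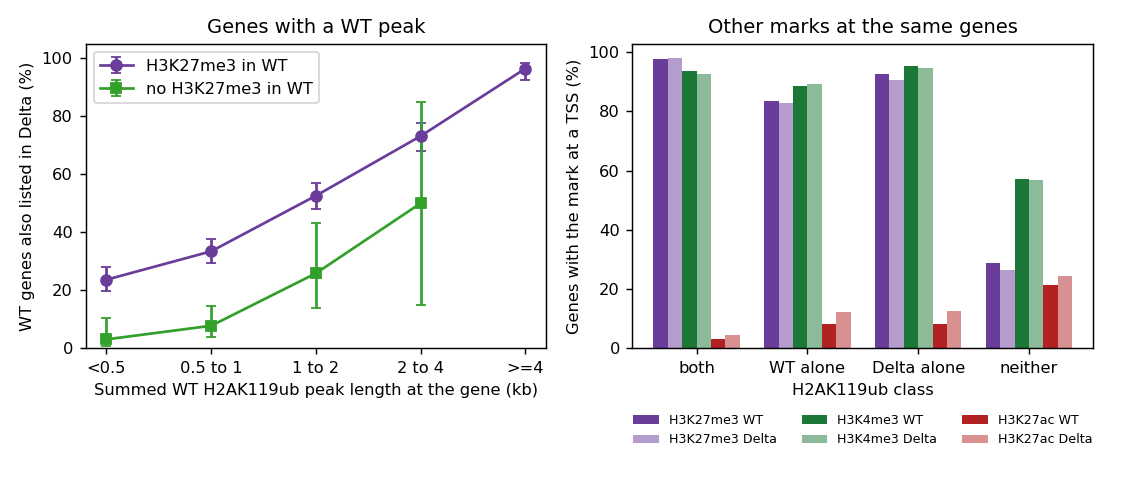
Left, percent of WT H2AK119ub genes also listed in Delta against the summed WT peak length at the gene in kb, for genes with (purple circles) and without (green squares) H3K27me3 in WT, with 95% Wilson intervals. Right, percent of genes with H3K27me3, H3K4me3 or H3K27ac at a TSS by H2AK119ub class, WT in full and Delta in pale colour, where H3K27me3 goes from 97.8% of genes in both to 28.6% of genes in neither in WT.

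The same held for bases rather than genes. Of the bases under WT peaks with a Delta counterpart, 95.3% lay under WT H3K27me3, against 62.5% for WT peaks without one. In Delta the shares were 97.5% and 90.1%. Delta peaks without a counterpart were therefore nearly all inside H3K27me3 domains, while 64.9% of the unmatched WT peaks touched one (63.3 to 66.5). H3K27ac covered under 1% of the H2AK119ub bases in each of these classes.

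Clustering along the chromosomes was measured as runs of at least 3 peaks with neighbours up to 20 kb apart. Such runs held 56.2% of WT peaks (2768 peaks in 530 clusters, 54.8 to 57.6) and 53.4% of Delta peaks (1276 in 245 clusters, 51.4 to 55.4). H3K27me3 peaks were more numerous and yet only 26.7% and 26.8% of them were in such runs, and H3K27ac 6.41% and 8.03%. Runs count peaks, however, and H3K27me3 peaks were longer. In WT their median was 1304 bp and their maximum 142467 bp, against 717 bp and 18332 bp for H2AK119ub. A single H3K27me3 peak can span several H2AK119ub peaks, and the part of this in the shares was not tested. The distance between neighbouring WT peaks had a median of 12.9 kb where even spacing would give 502 kb, and in Delta 13.5 kb against 1035 kb. With equal numbers of peaks WT had 40.2% in clusters, below the Delta share. Of the 530 WT clusters 411 (77.5%) held a Delta peak, and of the 245 Delta clusters 243 (99.2%) held a WT peak.

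The clusters with most covered sequence were the 4 Hox clusters and a few gene-dense regions. The Hoxc cluster (chromosome 15, 102739465 to 103016373) held 57 WT peaks with 94044 bp, and Delta peaks covered 89589 bp of the same span. The Hoxa cluster (chromosome 6, 52112890 to 52227822) had 71225 bp in WT against 73320 bp in Delta, the Hoxb cluster 63134 bp and 52817 bp, and the Hoxd cluster 50823 bp and 52656 bp. H3K27me3 covered 77.2% of the Hoxc span and 98.6% of the Hoxa span in WT. The summed length in Delta was thus close to that in WT in 3 of the 4 and lower in Hoxb. Of the WT peaks in the Hoxc cluster 39 of 57 overlapped a Delta peak, in Hoxa 17 of 21, in Hoxb 23 of 29 and in Hoxd 21 of 29. The cluster at Nfix and Lyl1 on chromosome 8 (87223269 to 87346591) had 70418 bp and 51802 bp.

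Other large WT clusters held much less in Delta. At Unc13a, a gene of synaptic vesicle release, and Jak3, a kinase of cytokine receptors (chromosome 8, 74074198 to 74255296), 37 WT peaks covered 57799 bp and Delta peaks 24639 bp. At Des, Speg, a kinase gene of striated muscle, Chpf and Inha, which encodes inhibin alpha (chromosome 1, 75335273 to 75504271), 29 WT peaks covered 53345 bp and 12 Delta peaks 15796 bp. H3K27me3 covered 29.4% and 16.6% of these spans in WT. Over all WT clusters, Delta peaks held 0.222 times the WT bases in the 109 clusters with under 25% H3K27me3, 0.470 times in the 169 with 25 to 75%, and 0.807 times in the 252 with more. The order was the same for clusters that held any Delta peak, at 45.9%, 82.8% and 87.7%. Only 6 of the 245 Delta clusters had under 25% H3K27me3. Clusters defined and ranked on WT peaks favour a smaller Delta value. In clusters defined on Delta peaks, WT peaks held 1.48, 1.41 and 1.03 times the Delta bases, in the same order of H3K27me3 share.

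**Figure D5:**
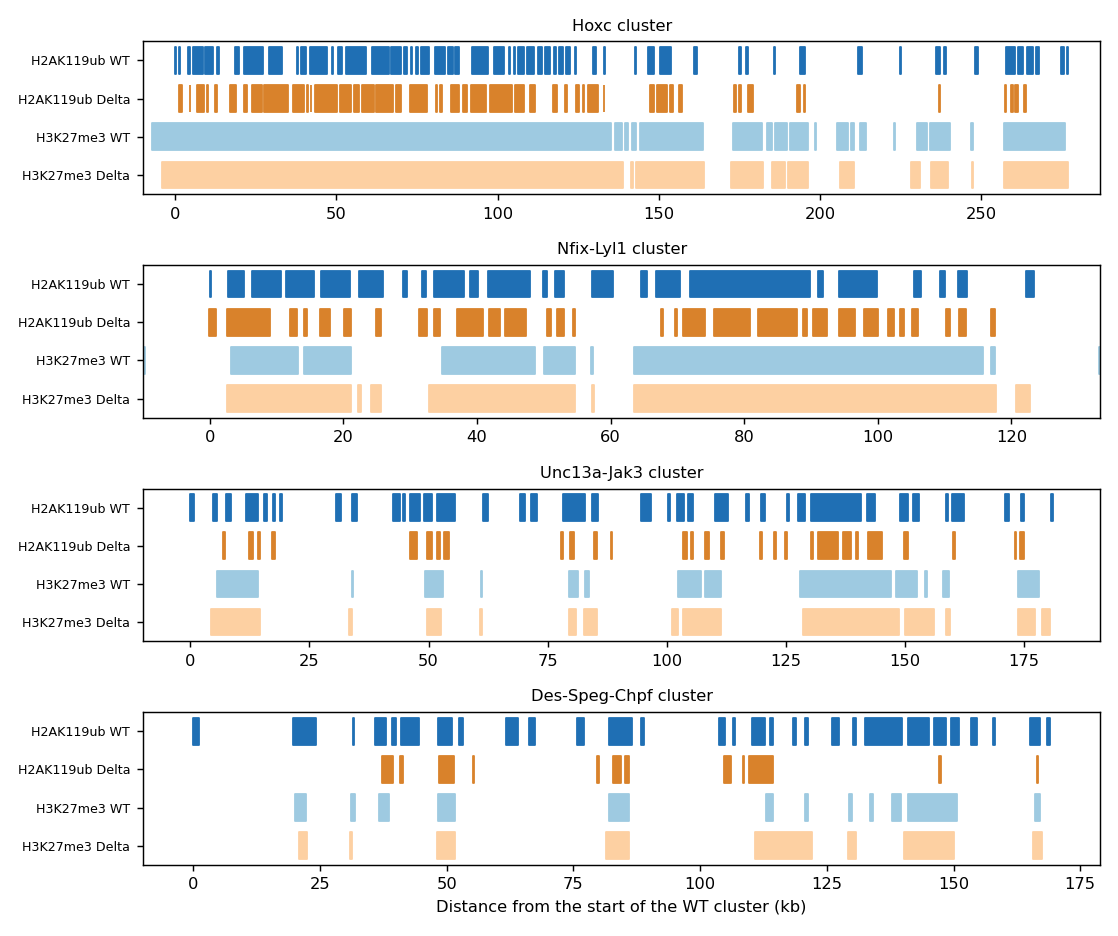
H2AK119ub and H3K27me3 peaks of WT and Delta (rows) across 4 large WT clusters, drawn to scale against distance from the start of the WT cluster in kb. In the Hoxc and Nfix-Lyl1 clusters Delta peaks fall along most of the WT span, while in the Des-Speg-Chpf cluster 12 Delta peaks cover 15796 bp where 29 WT peaks cover 53345 bp.

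Among peaks away from any annotated protein-coding start, the longest lay under H3K27me3. The second longest in WT was 7248 bp long in an intron of Gm5607 on chromosome 8 (12396003 to 12403250). In Delta they were 7835 bp long in an intron of Pax7, a muscle stem cell regulator (chromosome 4, 139374762 to 139382596), and 7528 bp long between genes 15.4 kb from the start of Pax3 (chromosome 1, 78209072 to 78216599). Peaks of the other genotype covered 5088 bp, 4755 bp and 4325 bp of these, and H3K27me3 covered their whole length in both genotypes.

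Finally, peaks were counted by chromosome. WT had between 0.679 peaks per Mb on chromosome 14 and 4.94 on chromosome 8, and Delta between 0.342 on chromosome 18 and 2.35 on chromosome 8. The ratio of Delta to WT numbers was below 1 on all 19 autosomes, from 0.380 on chromosome 17 to 0.628 on chromosome 6, so the difference was not confined to a few chromosomes. Chromosome 8 held 651 WT peaks (13.2%) and 310 Delta peaks (13%). Median fold enrichment was lower on chromosomes 1 and 8 than on the other autosomes, at 3.40 and 3.39 against 3.68 in WT and 3.82 and 3.76 against 4.05 in Delta, and its part in the number of peaks there was not tested. Without these 2 chromosomes the ratio of peak numbers was 0.485. Chromosome X, with 932 protein-coding genes, had 0 H2AK119ub peaks in each genotype although 161 and 147 H3K27me3 peaks were listed there. Whether this chromosome was filtered for H2AK119ub is not given in the sources used here, so the count of 0 may not be a measurement.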

How the data were processed

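ChIP-seq with a Drosophila spike-in was carried out by the authors in mCherry-positive day 4 EB cells, with a single library for each mark in each genotype. According to the study's methods and the submitters' processing notes, reads were trimmed, mapped with Bowtie to mm9 and dm3 and cleared of duplicates, and broad peaks were called per library with MACS2 (2.0.10) against the input of the same genotype. Spike-in scaling was described for signal and not for peak calls. For each peak the deposited lists give a fold enrichment, a ratio computed by the authors, a −log10 p and a −log10 q as deposited, and a score made by the authors that was not used. No depth can be read from the lists.

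Coordinates are 1-based on NCBIM37 (mm9), and genes came from GENCODE M1 (22359 protein-coding genes). A gene had a peak when one came within 2500 bp of any protein-coding start. CG counts came from the reference. Intervals are 95% Wilson intervals, or order-statistic intervals for medians. They cover counting error only, and neighbouring peaks are not independent. The members and gene lists were chosen with earlier results of these data known. The lists of SCL targets are gene names from the study's supplement. Named genes were those the study discusses, the 5 longest of each class, those of the 5 largest clusters of each list, up to 4 members per list with the longest WT peaks, small sets in 1 genotype alone, and the 2 longest peaks of each list away from a start. Genes named for their WT length favour a shorter value in Delta. The symbol Hoxa3 belongs to 2 identifiers in the annotation, and list counts use 1 of them. Gfi1 and Sox1 were not matched in the annotation, so the blood list lacks Gfi1, and the neural list and neural markers lack Sox1. A start missing from the annotation cannot be counted, and a peak near one is placed away from a start. A few genes that this rule names are not reported here. Groups came from sample titles. Overlap, gene and cluster code was tested on simulated data of 2000 peaks and recovered 7 of 7 known quantities, and overlap counts differed from those of bedtools (2.31.1) by 0 peaks. As alternatives, only peaks reaching a −log10 q of 3 or a fold enrichment of 3 were kept, peaks no more than 3000 bp apart were merged, and chromosomes 1 and 8 were left out. Others were 50% coverage or 3000 bp distance for a counterpart, the 2388 peaks of lowest p from each list, peaks of at least 500 bp, a TSS distance of 1000 bp, cluster gaps of 10 and 50 kb, and CG in the middle 500 bp. Python (3.11.15), pandas (2.3.3), SciPy (1.17.1) and samtools (1.23.1) were used.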

Additional observations from a re-analysis of the deposited data

How the results depend on the processing

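No paired analysis was possible because each genotype had a single library of each mark, and for the same reason no replicate could be left out. Of 47 alternative values, 22 lay inside the interval of the reported value or, for gene counts, within 1.5 times of it, 23 lay outside and 2 turned round. The causes were not tested. Keeping peaks with a fold enrichment of 4 or more, a choice made after seeing the data, reversed the peak number ratio from 0.485 to 2.33 and the covered length ratio from 0.540 to 2.94. Joining peaks gave a number ratio of 0.453, and a −log10 q of at least 3, which left 99 and 49 peaks, a length ratio of 0.446. For counterparts, 50% coverage gave 18.8% of WT and 49.2% of Delta peaks, a distance of 3000 bp 47.7% and 87.3%, and equal numbers of peaks 44.0% and 48.4%, at which the lists were nearly even. Equal numbers also gave 1217 genes in WT, 534 in WT alone and 435 in Delta alone, and 40.2% of WT peaks in clusters. A TSS distance of 1000 bp placed 38.2% of WT and 40.4% of Delta peaks at a TSS. Cluster gaps of 10 kb gave 47.2% and 49.2% in clusters, and of 50 kb 67.9% and 59.6%, so which genotype was more clustered was not stable. The middle 500 bp held 2.00 and 2.20 CG per 100 bp. H3K27me3 was at 86.1% of WT-alone genes with a TSS distance of 1000 bp, 88.0% with equal numbers and 86.1% with peaks of at least 500 bp, alternatives added after seeing the data. Peak lists limit the precision throughout: sites just under the threshold are not listed, and the threshold lay at a different fold in each library.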
